A study of Homo sapiens with 6 samples.

Results

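The subject is TRIM24 binding around MYC and PVT1 on the long arm of chromosome 8 in prostate cancer cells. Its members are the TRIM24 peaks of 3 lists whose midpoint lies in chr8:127500000-129500000 (hg19), a window of 2 Mb. Of 37470 peaks in all, 27 are members: 5 of 9744 in LNCaP under vehicle, 4 of 7105 in LNCaP under DHT and 18 of 20621 in LNCaP-abl. In hg19 MYC runs from 128748315 to 128753680 and PVT1 from 128806779 to 129113499, both in the direction of rising coordinates, and the long stretch before MYC holds the prostate cancer risk region. The peaks come from chromatin immunoprecipitation and sequencing (ChIP-seq), which recovers and sequences the DNA that a protein occupies. LNCaP is an androgen-dependent human prostate cancer line. Its cells were kept for 72 h in serum stripped of hormones with charcoal and dextran, then treated for 4 h with ethanol as vehicle or with the strong androgen dihydrotestosterone (DHT) at 10 nM. LNCaP-abl is a castration-resistant line derived from LNCaP that was always cultured in stripped serum and received vehicle for 4 h. Each condition had 1 library made with 1 TRIM24 antibody, so differences between the lists could not be set against the spread of replicates and were not tested. The lists do not give the sequencing depth, so a missing peak means only that none was called.

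MYC encodes a transcription factor that drives growth and cell division and is often gained or overexpressed in prostate cancer. PVT1 is a long noncoding RNA gene just downstream of MYC. It is co-gained with MYC in many cancers, hosts several microRNAs, and its promoter and internal enhancers are known to take part in the control of MYC. The gene-poor stretch upstream of MYC carries inherited prostate cancer risk signals, and distal enhancers in it are known to contact MYC. TRIM24 is a chromatin reader that binds histone H3 tails through a PHD finger and a bromodomain. It acts as a coregulator of nuclear receptors, among them the androgen receptor.

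TRIM24 peaks lay at the MYC start in all 3 lists, at the PVT1 start in LNCaP under DHT and in LNCaP-abl, and within PVT1 mainly in LNCaP-abl. Joining overlapping peaks gave 18 regions in the window. LNCaP-abl alone held 11 of them (61.1%, against 53.6% of 22226 regions genome-wide). Vehicle and LNCaP-abl shared 3 (16.7%, against 13.6%), DHT and LNCaP-abl shared 2 (11.1%, against 5.68%), and all 3 lists shared 2 (11.1%, against 19.6%). No region was held by LNCaP alone, under either treatment, when all peaks were used. Such regions were also few genome-wide: 3.96% were held by vehicle alone, 2.47% by DHT alone and 1.07% by both without LNCaP-abl. In lists of equal length (the best 7105 peaks of each), vehicle alone held 1 region, DHT alone 1 and LNCaP-abl alone 1, and with only the upper 50% of every list by score they held 1, 1 and 5. All 5 vehicle peaks overlapped a LNCaP-abl peak (95% confidence interval 47.8% to 100%), where 88.4% of the whole vehicle list did, and so did all 4 DHT peaks (39.8% to 100%), where 88.8% of the whole DHT list did. Of the vehicle peaks 2 overlapped a DHT peak, against 48.6% of that list, and 2 of the DHT peaks overlapped a vehicle peak, against 66.7%. Of the 18 LNCaP-abl peaks, 5 overlapped a vehicle peak (27.8%, interval 9.69% to 53.5%), against 36.0% of that list. A DHT peak overlapped 4 of them (22.2%, 6.41% to 47.6%), against 27.4%, and a peak of either LNCaP list overlapped 7 (38.9%, 17.3% to 64.3%), against 42.2%. Each interval is exact (Clopper-Pearson), covers counting error only and includes the share in the whole list, so these shares were not distinguishable from the rest of the genome.

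**Figure D1:**
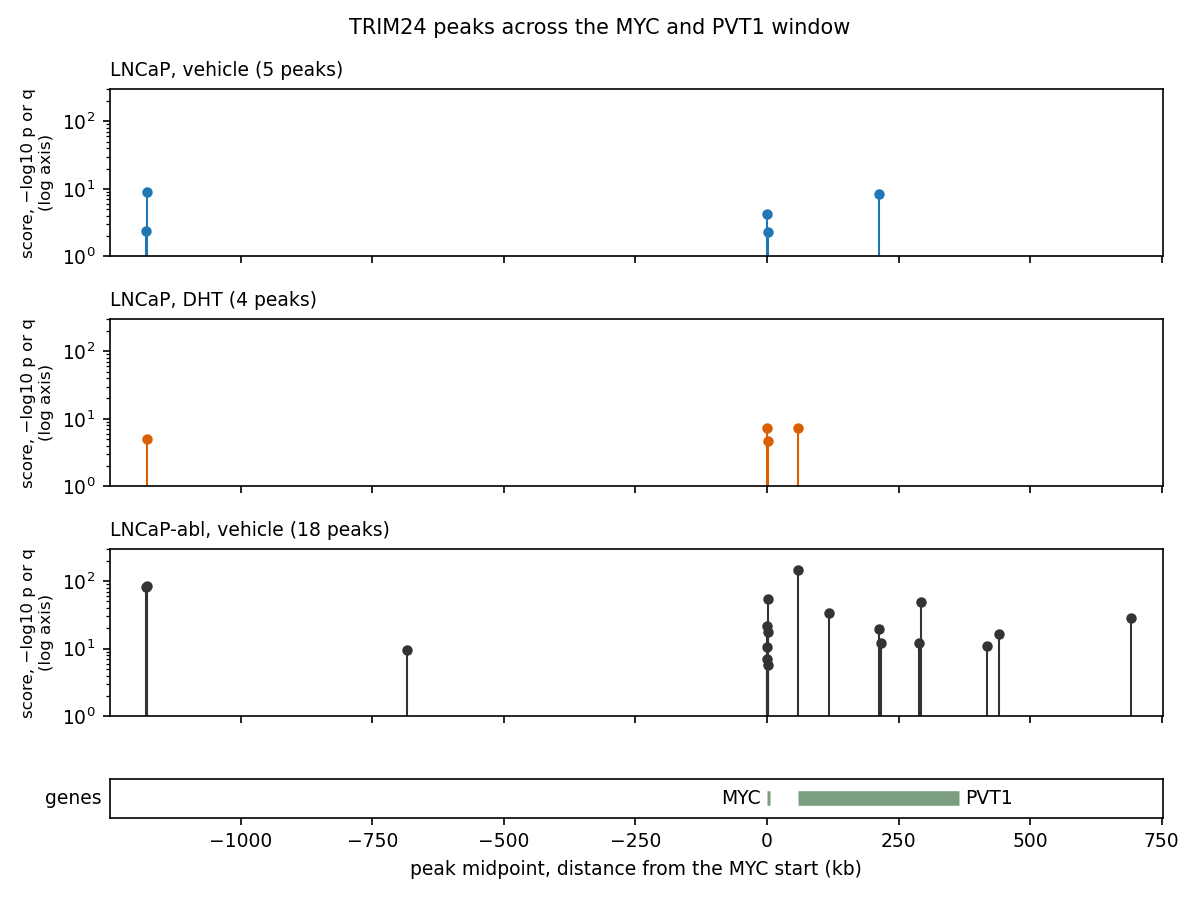
TRIM24 peaks in the window, 1 panel per library, with peak midpoint as distance from the MYC start (kb) on the horizontal axis and the authors' peak score on a logarithmic vertical axis; green bars mark MYC and PVT1. Peaks stand at the far left, at MYC and in PVT1, and the LNCaP-abl panel (18 peaks) alone has any downstream of PVT1 or between the far-left pair and MYC.

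The MYC start was covered by a peak in each list. In LNCaP under vehicle this was chr8:128748245-128748444, with a score of 4.22, and its midpoint lay 29 bp inside the gene. The score is the authors' own, a −log10 probability (p or q) for that peak, and it is read here only by its place within its own list. Under DHT the peak was chr8:128748218-128748418, with a score of 7.39 and a midpoint 2.5 bp from the start. In LNCaP-abl it was chr8:128748196-128748860, with a score of 21.5 and a midpoint 212.5 bp inside the gene. Thus all 3 peaks spanned the same point, but the LNCaP-abl peak reached 545 bp into MYC, the vehicle peak 129 bp and the DHT peak 103 bp. LNCaP-abl peaks were also wider over the whole list, with a median of 528 bp against 297 bp for vehicle and 296 bp for DHT. The start peak was a low one in the vehicle list, where 13.6% of peaks scored lower, and sat near the middle of the others, with 56.7% lower under DHT and 45.6% lower in LNCaP-abl. The vehicle and DHT peaks were 200 and 201 bp wide, at the narrow end of lists whose narrowest peaks are 200 bp, a width that 16.4% of the vehicle list has.

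Around that shared point LNCaP-abl had a row of TRIM24 peaks across the MYC promoter and the first part of the gene. The row held 6 peaks from 128747328 to 128751243, a span of 3916 bp, with 66 to 420 bp between neighbours. Its members before the start were chr8:128747328-128747671, with a score of 7.01, and chr8:128747797-128748129, with a score of 10.6. Neither met a LNCaP peak, although the DHT start peak was 88 bp from the second of them and the vehicle start peak 115 bp from it. In the LNCaP-abl score deciles of these peaks, 90.9% and 86.2% had no partner in either LNCaP list. The strongest member lay inside MYC, at chr8:128749281-128750347, with a score of 54.8, a width of 1067 bp and a midpoint 1498.5 bp past the start. It was followed by chr8:128750551-128750789, with a score of 5.66, and chr8:128750875-128751243, with a score of 17.8. Within the row, then, the peak inside the gene and not the one over the start scored highest, with 68.4% of the LNCaP-abl list below it. Counting edges within 1 kb of the MYC start, LNCaP-abl had 4 peaks there, vehicle 1 and DHT 1. In lists of equal length, and likewise in the upper 50% of every list by score, LNCaP-abl had 1 there (the peak with a score of 54.8, which does not cover the start), vehicle 0 and DHT 1.

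Each LNCaP list had a second, weaker peak inside MYC, at a different place. Under DHT it was chr8:128749616-128749910, with a score of 4.71, and it lay wholly within the strongest LNCaP-abl peak of the row. Under vehicle it was chr8:128751035-128751284, with a score of 2.33, and it overlapped the last LNCaP-abl peak of the row by 209 bp. The 2 inner LNCaP peaks were 1124 bp apart. The vehicle one was near the bottom of its list, where 0.298% of peaks scored lower, and the DHT one had 20.9% of its list below it. Peaks covered 41.4% of the MYC gene in LNCaP-abl, 7.44% under DHT and 7.08% under vehicle. The LNCaP-abl list has wider peaks genome-wide and more of them (20621, against 7105 and 9744). The coverage is therefore not shown to be particular to MYC. No list had a peak in the last part of the gene or anywhere in the 55.1 kb between the end of this row and the PVT1 start peak.

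Rows as long as the one at MYC were rare in the LNCaP-abl list. When peaks less than 1 kb apart were chained, that list formed 17895 chains, of which 87.4% were single peaks and 7 (0.0391%) had 6 peaks or more. With chaining below 500 bp, 2 of 18462 chains had 6 peaks, which was then the greatest number. This count was made after the row at MYC had been seen and is a description of the list. In the vehicle and DHT lists no 2 peaks at MYC were less than 1 kb apart. Long rows did occur elsewhere in those lists. With chaining below 1 kb the longest had 8 peaks in vehicle and 11 in DHT, against 7 in LNCaP-abl.

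**Figure D2:**
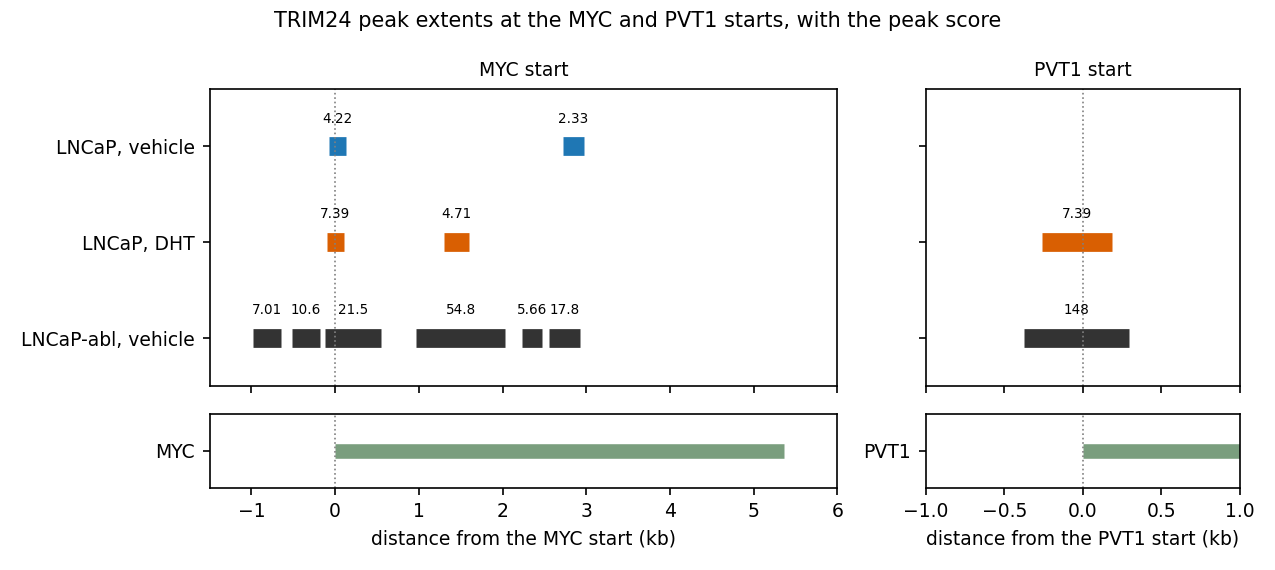
Extent of each TRIM24 peak around the MYC start (left) and the PVT1 start (right), as distance from that start (kb), with 1 row per library, the peak score above each bar and the gene in green. LNCaP-abl has 6 peaks at MYC where vehicle and DHT have 2 each, and at the PVT1 start the vehicle row is empty.

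The PVT1 start carried the highest-scoring TRIM24 peak of the window. In LNCaP-abl it was chr8:128806407-128807076, with a score of 148, a width of 670 bp and a midpoint 38 bp before the start. It ranked 1149 of 20621 in its list, with 94.4% of peaks below it. Under DHT the peak was chr8:128806522-128806964, with a score of 7.39, a width of 443 bp and a midpoint 36.5 bp before the start, and it lay wholly inside the LNCaP-abl peak. It shared the top score of the DHT peaks of the window with the MYC start peak. Under vehicle no peak was called at the PVT1 start, and the nearest vehicle peak was the one inside MYC, 55237 bp from the DHT peak.

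A LNCaP-abl peak of this score with a DHT peak and no vehicle peak was an infrequent combination. Of the 2062 peaks in the highest score decile of LNCaP-abl, which starts at 116, 80.5% had a peak in both LNCaP lists and 11.3% in vehicle alone. A DHT peak alone was present at 91 of them (4.41%), the PVT1 start among these, and neither at 80 (3.88%). The DHT peak there scored above 56.7% of its list. Of the DHT peaks in the same score decile of the DHT list, 63.9% overlapped a vehicle peak. The MYC start, by contrast, had both LNCaP peaks although its LNCaP-abl peak lay in the fifth decile, where 7.90% of peaks had both. Both starts were set against these shares with their own peaks already known, so the shares are a description and not a test.

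Inside PVT1, beyond its start, every TRIM24 site was in the LNCaP-abl list, and a single site was also in a LNCaP list. That shared site was 155 kb into the gene. Vehicle had chr8:128961914-128962204 there, with a score of 8.41, and LNCaP-abl had chr8:128961847-128962271, with a score of 19.6. The vehicle peak lay wholly inside the LNCaP-abl one and their midpoints coincided. It was one of the better vehicle peaks of the window, with 68.4% of its list below it, while the LNCaP-abl peak had 43.3% of its list below it. The nearest DHT peak was 155 kb away, at the PVT1 start.

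The other 4 peaks within PVT1 were present in LNCaP-abl and absent from both LNCaP lists. The strongest of them was chr8:129040074-129040679, 234 kb into the gene, with a score of 48.6 and 65.1% of the list below it. A weaker neighbour, chr8:129037280-129037507, with a score of 12.3, lay next to it. Closer to the start was chr8:128866144-128866988, 59.8 kb into the gene, with a score of 33.2 and a width of 845 bp. The last, chr8:128964444-128964664, with a score of 12.2, was 2239 bp from the vehicle peak inside PVT1. In the LNCaP-abl score decile of the strongest, 47.0% of peaks had no partner in either LNCaP list. That share was 61.3% in the decile of the peak at 59.8 kb and 79.8% in that of the weakest pair.

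Upstream of MYC the window held TRIM24 peaks at its far end and almost none in between. The far pair lay about 1.2 Mb before MYC. At the first site LNCaP-abl had chr8:127568584-127569681, with a score of 82.3, and vehicle had chr8:127568647-127568923, with a score of 2.36, close to the bottom of its list (0.349% lower). DHT had no peak there. At the second site all 3 lists had a peak. LNCaP-abl had chr8:127569957-127570996, with a score of 85.6, vehicle had chr8:127570225-127570869, with a score of 9.13, and DHT had chr8:127570603-127570849, with a score of 4.95. The second site gave the highest vehicle score of the window, above 73.2% of the vehicle list, while the DHT peak there was above 22.5% of its own list. The LNCaP-abl peaks of the pair were above 80.6% and 81.8% of their list, and only the PVT1 start scored higher in the window. In the gene order of assembly GRCh38.p14, POU5F1B and LRATD2 are the nearest protein-coding genes before MYC. Which of them, if any, the far pair belongs to was not established, because no hg19 annotation was used here.

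Between the far pair and MYC, LNCaP-abl had 1 peak and the LNCaP lists had 0. That peak was chr8:128064897-128065213, 683 kb before MYC, with a score of 9.51 and 25.8% of its list below it. In its score decile 86.2% of LNCaP-abl peaks had no partner in either LNCaP list. Stretches of 494 kb before this lone peak and 682 kb after it had no peak in any list. The upstream zone as a whole measured 1247 kb and held 3 of the 18 regions, against 6 regions in the 6.37 kb of MYC with 1 kb before it and 6 in the 308 kb of PVT1 with 1 kb before it. The bounds of the prostate cancer risk region were not set here. The zone that holds it had 2 vehicle, 1 DHT and 3 LNCaP-abl peaks, mostly at its far end. Low counts were common genome-wide. Of 1494 windows of 2 Mb, 241 held 0 vehicle peaks, 316 held 0 DHT peaks and 164 held 0 LNCaP-abl peaks. The lower quartiles were 1, 1 and 3, so a scarcity particular to this zone is not shown.

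Downstream of PVT1 all TRIM24 peaks were in LNCaP-abl. The strongest was chr8:129440362-129440801, with a score of 28.4, which lay 692 kb past the MYC start. The others were chr8:129189130-129189425, with a score of 16.6, and chr8:129165328-129165749, with a score of 10.9. The nearest peaks of either LNCaP list were more than 200 kb from each of them. In the LNCaP-abl score decile of the strongest, 61.3% of peaks had no partner in either LNCaP list. That share was 79.8% in the decile of the others.

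In each list the median score of the members was below the median of the whole list. In LNCaP-abl single members stood well above the list median, among them the PVT1 start and the far upstream pair. Vehicle members scored 2.33 to 9.13 with a median of 4.22, against 6.46 for the whole vehicle list, and 2 of 5 were above that list median. DHT members scored 4.71 to 7.39 with a median of 6.17, against 6.82, and 2 of 4 were above. LNCaP-abl members scored 5.66 to 148 with a median of 18.7, against 26.1, and 7 of 18 were above. Their median width was 423.5 bp, against 528 bp for the whole LNCaP-abl list. The 7 LNCaP-abl members with a LNCaP partner had a median score of 54.8 (17.8 to 148) and a median width of 670 bp, and the 11 without had 12.2 (5.66 to 48.6) and 333 bp. The relation to score held over the whole LNCaP-abl list. There the share without a LNCaP partner was 92.4% in the lowest score decile and 3.88% in the highest. The split by width was computed for the members only.

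**Figure D3:**
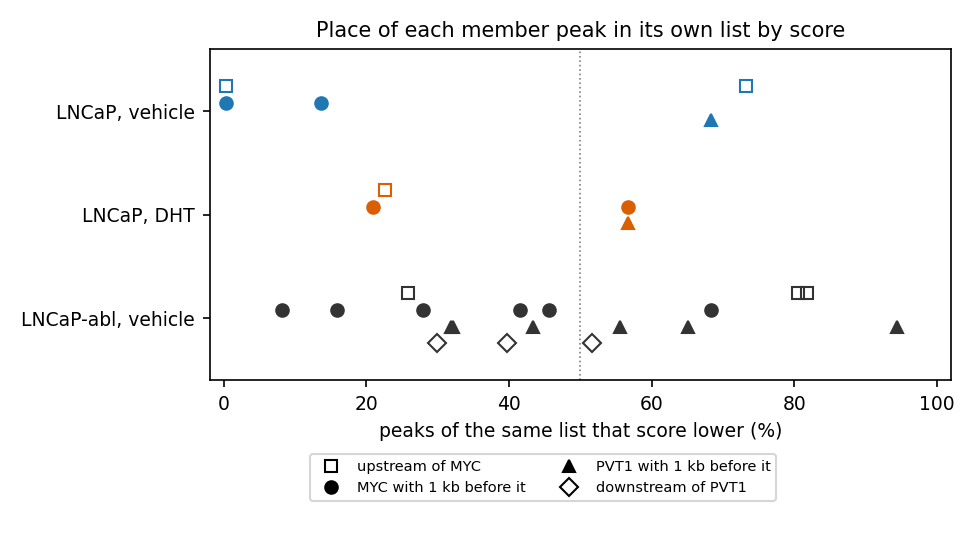
Place of each member peak in its own list, as the percentage of that list's peaks with a lower score (horizontal axis), with 1 row per library and 1 symbol per zone of the window; the dotted line marks 50%. In LNCaP-abl the PVT1 start stands at 94.4% and the far upstream pair at 80.6% and 81.8%, while 5 of the 6 peaks at MYC lie below 50%.

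The window as a whole was not unusually rich in TRIM24 peaks for its length. It held 2.5 peaks per Mb under vehicle, 2 under DHT and 9 in LNCaP-abl, against 3.19, 2.32 and 6.75 over all nuclear chromosomes. The ratios were 0.784 (95% interval 0.255 to 1.83), 0.861 (0.234 to 2.20) and 1.33 (0.790 to 2.11), and each interval includes 1. Against the rest of chromosome 8 they were 0.893, 0.981 and 1.55 (0.912 to 2.46 for LNCaP-abl). Among 1494 windows of 2 Mb tiled over the genome, 37.3% held more vehicle peaks, 36.3% more DHT peaks and 20.7% more LNCaP-abl peaks, where the median window had 4, 3 and 8. The adjoining windows of 2 Mb held 5 and 3 vehicle, 4 and 3 DHT, and 7 and 6 LNCaP-abl peaks. With LNCaP-abl peaks less than 1 kb apart counted once, a setting chosen after the data were seen, the window had 12 and its ratio to all nuclear chromosomes was 1.02. With all lists cut to the length of the shortest, the best 7105 peaks of each, 4 LNCaP-abl, 4 DHT and 2 vehicle members were left, the LNCaP-abl ratio to all nuclear chromosomes was 0.860 and that to the rest of chromosome 8 was 0.877, both on the other side of 1. At that length the LNCaP-abl members left were the far upstream pair, the strongest peak inside MYC and the PVT1 start, and the vehicle peak at the MYC start was not among those left.

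**Figure D4:**
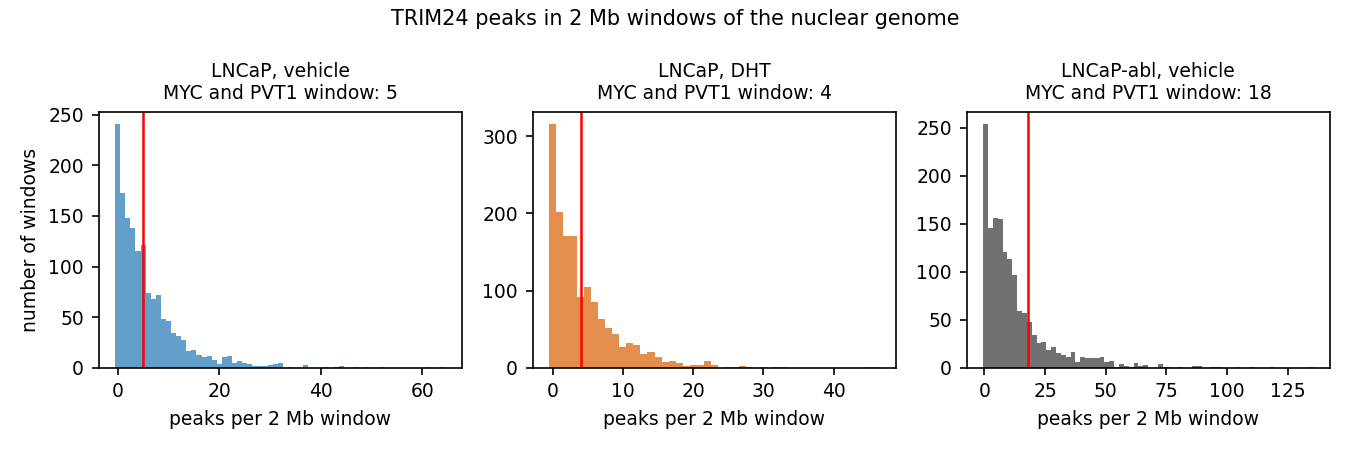
Number of TRIM24 peaks in each of 1494 windows of 2 Mb (horizontal axis) against the number of windows (vertical axis), 1 panel per library, with a red line at the MYC and PVT1 window. The line stands at 5, 4 and 18 peaks, above the medians of 4, 3 and 8 and far from the upper end of each distribution.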

How the data were processed

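TRIM24 ChIP-seq peak lists of 3 libraries were used; the 3 input libraries were not. FastQC 0.10.0, Bowtie 0.12.7, MACS2 2.0 and genome build hg19 are named in the submitters' processing notes; cutoff, read filters and the use of inputs were not given in the sources used here. Each deposited score in the authors' lists was read as −log10 of either a q-value or a p-value, from its range and the MACS2-style peak names; which of these it is remains unstated. It grows with depth, which is unknown, so scores were compared only within a list, except for a common score minimum tried among the alternatives. Starts were converted to count from 1.

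Members are peaks with their midpoint in the window. The members, the locus, the gene coordinates and the lists of tests were chosen with earlier results of these data known. Sites named were all LNCaP members, LNCaP-abl members that overlap one or lie within 1 kb of a gene start, and the 8 highest-scoring others; the rule leaves out 1 peak, chr8:128750551-128750789, which is given too and was added after its values were seen. Overlap means at least 1 bp, computed in Python 3.11.15 (numpy 2.4.6, pandas 2.3.3, scipy 1.17.1), tested on simulated data and equal to bedtools 2.31.1 for every peak. Figures used matplotlib 3.10.9. Intervals are exact 95% binomial and treat peaks as independent. Density used lengths up to the last peak on a chromosome. Score deciles were formed within each list. Alternatives were other overlap rules, widths, list lengths, score minimums and distances.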

Additional observations from a re-analysis of the deposited data

How the results depend on the processing

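No paired analysis was possible because there was a single library per condition, and none could be left out. Of 124 values recomputed, 85 stayed within their interval or within 1.5 times their count. Unless a reason stands beside a value, the cause was not tested. That 85 stayed is not a measure of robustness. The intervals of the overlap shares rest on 4 to 18 peaks and are wide. The DHT list itself has 7105 peaks, so at that length its counts and density ratios could not change. In lists of 7105 peaks, which keep fewer peaks of the longer lists, the window held 2 vehicle and 4 LNCaP-abl peaks, and 75% of the latter overlapped a DHT peak. Regions then numbered 1 each for vehicle alone, DHT alone, LNCaP-abl alone and all 3 lists, and 0 for vehicle with LNCaP-abl. By zone, vehicle had 1 peak upstream and 0 at MYC, and LNCaP-abl had 1 at MYC, 1 at PVT1 and 0 downstream. At the MYC start vehicle had 0 peaks and LNCaP-abl 1. The LNCaP-abl density ratio to the rest of chromosome 8 was 0.877. In the better-scoring 50% of each list, which keeps fewer peaks, the window held 2 vehicle, 2 DHT and 7 LNCaP-abl peaks, and 0% of vehicle and of DHT peaks overlapped each other. Regions numbered 1 for vehicle alone, 1 for DHT alone, 5 for LNCaP-abl alone, 1 for vehicle with LNCaP-abl, 1 for DHT with LNCaP-abl and 0 for all 3, and the MYC start had 0 vehicle peaks and 1 LNCaP-abl peak. At or above a score of 26.1, the median of the LNCaP-abl list, there were 0 vehicle, 0 DHT and 7 LNCaP-abl peaks. The highest members scored 9.13 under vehicle and 7.39 under DHT, so none could pass that minimum. Scores of different lists are also not on a common scale, so nothing is concluded from these counts. With a reciprocal overlap of at least 50%, 25% of DHT peaks overlapped a LNCaP-abl peak and 5.56% of LNCaP-abl peaks a DHT peak. Over the whole lists that rule left 1741 of 7105 DHT peaks and 1741 of 20621 LNCaP-abl peaks. Of the vehicle peaks, 60% then overlapped a LNCaP-abl peak, where 2559 of 9744 did over the whole list. That vehicle share was 50% in lists of 7105 peaks and 50% in the better-scoring 50%. For DHT peaks the share was 75% and 50% in those 2 settings. All these shares rest on a few peaks. Treating peaks with under 1 kb between them as shared put the share of LNCaP-abl peaks with a DHT peak at 50%. Joining such peaks left 1 region for vehicle with LNCaP-abl and 1 for DHT with LNCaP-abl. Overlap shares under the other settings were computed in the window only, so they cannot be set against the genome. Within 5 kb of the MYC start vehicle had 2 peaks and DHT 2. Setting peaks to 400 bp moved none of 13 values.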
